A study of Mus musculus with 6 samples.

Results

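The Gzma Ly49 cells are a small set of invariant natural killer T (iNKT) cells of the mouse that carried RNA of natural killer (NK) cell genes, above all of the Ly49 receptors. A cell was a member when it had 1 or more unique molecular identifiers (UMIs, each standing for 1 captured RNA molecule) in at least 3 of 9 genes, namely Gzma, Klra1, Klra5, Klra6, Klra7, Klra9, Fcer1g, Tyrobp and Ncr1, and 0 UMIs of Lyz2, Cd74 and Top2a. Of 16532 cells, 237 (1.43%) were members, 149 of them from liver, 69 from spleen and 19 from lymph node. The rule read the measured values, so the levels of these 12 genes in the members are a description and were given no test. Gzma itself had a UMI in 81 members (34.2%) and a Ly49 gene of the rule in 231 (97.5%), so "Gzma Ly49 cells" stands for the rule and not for a granzyme in every cell.

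The cells were iNKT cells of wild-type C57BL/6 mice 5 weeks old, taken from liver, spleen or lymph nodes, with 2 libraries per organ and no treatment in any group. Cells positive for CD8 or B220 had been depleted before a sort on TCR-β and a CD1d tetramer, and the labels place the purity above 97%. How many mice made up a library and their sex are not in the labels. The study describes 2 biological repeats per organ, but whether these came from separate mice is not given in the labels. The p-values here therefore measure the spread over libraries. With library as a block, this is the spread over libraries of the difference between members and remaining cells. Liver and spleen libraries held Xist RNA and lymph node libraries Y-linked RNA, so sex and lymph node origin cannot be told apart.

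iNKT cells are T cells that read lipids on CD1d through a nearly invariant receptor, and they settle in organs in which they respond within hours. Those of type 1 (iNKT1) express T-bet and many receptors of NK cells. The Klra genes encode the Ly49 receptors, a lectin-like family that mostly binds MHC class I. Inhibitory members carry their own signalling motif and activating members signal through adaptors such as DAP12, the product of Tyrobp. Single NK cells express a changing subset of Ly49 genes, which are switched on in part at random.

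The Ly49 genes of the rule lie together on the minus strand of chromosome 6, and the sequences around their annotated starts show which of them resemble each other. The windows below come from the RefSeq promoter entries (250 bases before to 50 after a start, GRCm38.p6). Klra5, Klra6, Klra7 and Klra9 are shown over 114 bases because they share a run of 16 bases, which is in capitals. The windows are lined up on this run, which begins 47, 76 and 46 bases before the annotated start of Klra5, Klra6 and Klra7 but past that of Klra9. They are chr6:129913248-129913361, chr6:130027007-130027120, chr6:130233345-130233458 and chr6:130193084-130193197 in this order, read 5′ to 3′ on the minus strand.
Klra5: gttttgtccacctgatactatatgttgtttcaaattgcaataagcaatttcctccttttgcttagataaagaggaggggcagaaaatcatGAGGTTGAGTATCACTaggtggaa
Klra6: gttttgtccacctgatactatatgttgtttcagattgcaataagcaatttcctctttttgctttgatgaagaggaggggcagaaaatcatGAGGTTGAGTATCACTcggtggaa
Klra7: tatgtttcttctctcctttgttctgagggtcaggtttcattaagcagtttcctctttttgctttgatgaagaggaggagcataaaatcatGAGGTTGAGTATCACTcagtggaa
Klra9: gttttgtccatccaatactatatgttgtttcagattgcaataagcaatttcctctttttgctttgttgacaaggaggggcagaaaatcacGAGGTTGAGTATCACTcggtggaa

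The shared run was found, searching both strands, in 7 of 32851 promoter entries (0.0213%), those of Klra5, Klra6, Klra7, Klra9, Klra8 with 2 entries, and the predicted gene Gm52487. Over the aligned entries Klra6 was 91.8% identical to Klra9 and 90.8% to Klra5, whereas Klra7 was 75.5% to 76.7% identical to the other 3. Klra1, the Ly49 gene with a UMI in most members, has no such run. It is shown over 120 bases (chr6:130387005-130387124) beside Gzma (chr13:113100972-113101091) and Gzmb (chr14:56262339-56262458), the granzyme genes described further on, all 3 on the minus strand. Capitals mark TGTGGT or its reverse complement, the core letters bound by RUNX factors.
Klra1: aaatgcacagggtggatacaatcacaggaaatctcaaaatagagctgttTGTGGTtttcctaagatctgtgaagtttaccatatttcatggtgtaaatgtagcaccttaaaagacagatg
Gzma: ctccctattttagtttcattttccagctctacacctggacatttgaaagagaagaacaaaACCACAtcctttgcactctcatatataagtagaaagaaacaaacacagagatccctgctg
Gzmb: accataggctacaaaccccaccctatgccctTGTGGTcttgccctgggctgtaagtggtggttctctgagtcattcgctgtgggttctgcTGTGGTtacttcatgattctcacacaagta

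TGTGGT stood in 16.8% of all entries on either strand and in 4 of the 8 rule genes that have one, Gzma, Klra1, Fcer1g and Ncr1. The other letters searched, chosen like these after the sequences were seen, were the T-box letters GGTGTGA (3.98% of entries, 1 of the 8, Klra1) and the AP-1 letters TGANTCA (7.81% of entries, 0 of the 8). Of 7 other named genes that have an entry, 6 held TGTGGT (Gzmb, Klre1, Klrc1, Klrc2, Klrk1 and Cxcr6). The AP-1 letters stood in 3 of these 7 (Gzmb, Klrc2 and Klrk1) and the T-box letters in 0. A gene was counted when any of its entries held the letters, whereas the percentages are shares of single entries, so these are unlike measures. A match describes letters and not a bound site.

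The libraries held 4758138 to 10870838 UMIs, with the liver libraries the deepest. Members had slightly fewer UMIs per cell than the remaining cells of the same library in 6 of 6 libraries, from a median of 3479 against 3596.5 in liver library 1 to 1299 against 1470 in lymph node library 2. Scrublet called 0 cells in both liver libraries and 2 to 11 cells in each of the others, too few to have worked, so doublets among members were not settled by it. Between libraries 148 barcodes were shared, and 0 members carried 1 of these. The sums of lymph node library 1 rest on 3 cells and 4590 UMIs and those of lymph node library 2 on 16 cells, and calls that were lost without both are named after the gene groups. Levels are CPM, the UMIs of a gene per 1000000 UMIs of all members or all remaining cells of a library, after ribosomal protein and haemoglobin genes were left out.

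The members were T cells by their CD3 RNA. A UMI of Cd3d, Cd3e or Cd3g was found in 236 of 237 members (99.6%). Of 12 tested genes for the T cell receptor complex and its signalling, 0 were called in either direction against the remaining cells by edgeR (4 at an unadjusted p below 0.05). Of these 12, 1 had a log2 fold above 0, and their median was -0.36 against -0.13 over all genes tested. Cd3d, a CD3 subunit, had 1893 and 1964 CPM in liver members against 1895 and 2050 in the remaining liver cells. In spleen library 2 a UMI of Cd3e was found in 39.3% of members against 67.5% of remaining cells, of Cd3g in 75.0% against 90.3% and of Cd247 in 10.7% against 17.7%. Shares were also lower in members for Cd247 in spleen library 1 (4.88% against 18.5%). The same held in lymph node library 2 for Cd3d (75.0% against 84.4%) and Cd3e (56.25% against 71.3%). Other shares were higher in members, such as Cd3e in spleen library 1 (78.0% against 70.1%) and Cd3g in lymph node library 2 (100% against 92.2%). Genes of the T cell receptor chains could not be matched by symbol in the matrices and are not analysed here. Type 1 genes were widespread, and 97.2% and 97.4% of liver, 87.8% and 71.4% of spleen and 66.7% and 75.0% of lymph node members had UMIs in at least 2 of 6 such genes, above the remaining cells of the same library in each case (93.6% and 92.3%, 67.7% and 59.3%, 28.2% and 23.3%).

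UMIs of markers that define conventional NK cells were found in few members, though in a larger share of them than of remaining cells for some genes. Eomes, the transcription factor of NK cells that ILC1 lack, had a UMI in 0 of 237 members, which allows a share of members with a UMI of up to 1.27% (counting error only). It had a UMI in 4 of 16295 remaining cells, so at this depth the 0 sets no limit on cells that express it. Itga2, which encodes CD49b, was found in 5 members (2.11%, against 0.515% of remaining cells), Klra8 in 8 (3.38% against 0.0614%), and Klra4 in 1 (0.422%, against 1 of the remaining cells). Of the 14 genes on the NK cell and ILC1 list that are in the matrices, 4 are rule genes and Eomes, Cma1 and Kit had no member UMI. The summed level of the other 10 was 235 to 607 CPM in members and 67.9 to 108 CPM in remaining cells, and the part of such cells in the results below was not tested.

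The demand for 0 UMIs of Lyz2 and Cd74 selects against myeloid and B cells, so low markers of these in members are partly fixed by the rule. B cell genes summed to 0 to 38.4 CPM in members against 5.01 to 43.3 CPM in remaining cells, and Cd79a and Ms4a1 were at 0 in members. Of 11 myeloid genes outside the rule 7 had no member UMI, including Csf1r, S100a8, S100a9 and C1qa, and the 11 summed to 0 to 496 CPM in members against 244 to 459 CPM in remaining cells. Genes of hepatocytes and endothelium gave 0 to 57.7 CPM in members and 28.6 to 67.5 CPM in remaining cells, with Alb at 0 in members. Of the red cell and platelet genes, 3 of 6 had no member UMI, and their summed level reached 7115 CPM in the members of liver library 2, where 1 member held 1123 of the 1126 haemoglobin UMIs. Haemoglobin genes were not in the tests.

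The share of Gzma Ly49 cells was highest in liver. It was 2.53% (71 of 2801 cells, exact 95% interval 1.98% to 3.19%) and 2.73% (78 of 2861, 2.16% to 3.39%) in liver, 1.50% (41 of 2729, 1.08% to 2.03%) and 1.05% (28 of 2655, 0.702% to 1.52%) in spleen, and 0.114% (3 of 2638, 0.0235% to 0.332%) and 0.562% (16 of 2848, 0.321% to 0.911%) in lymph node. The mean was 2.63% ± 0.135 in liver, 1.28% ± 0.317 in spleen, and 0.338% ± 0.317 for lymph node (SD, n = 2 each), and the libraries of the 3 organs did not overlap. An exact permutation test of the F statistic over the 15 arrangements of the libraries gave p = 0.0667, the smallest p that this design allows, so it could not pass a threshold of 0.05.

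Depth differed with organ, and a rule that asks for UMIs in 3 genes is met more easily by a deeper cell. With every cell thinned to 1000 UMIs, and 1075 shallower cells left out, liver libraries had shares of 0.643% and 1.30%, spleen libraries 0.928% and 0.764%, and lymph node libraries 0.0421% and 0.381%. Liver and spleen libraries then overlapped, and the exact permutation test gave p = 0.2. Both lymph node libraries stayed below all 4 others, and the difference between the liver and spleen means fell from 1.35 to 0.124 percentage points. Among unthinned cells of at least 1000 UMIs it was 1.36 points.

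**Figure D1:**
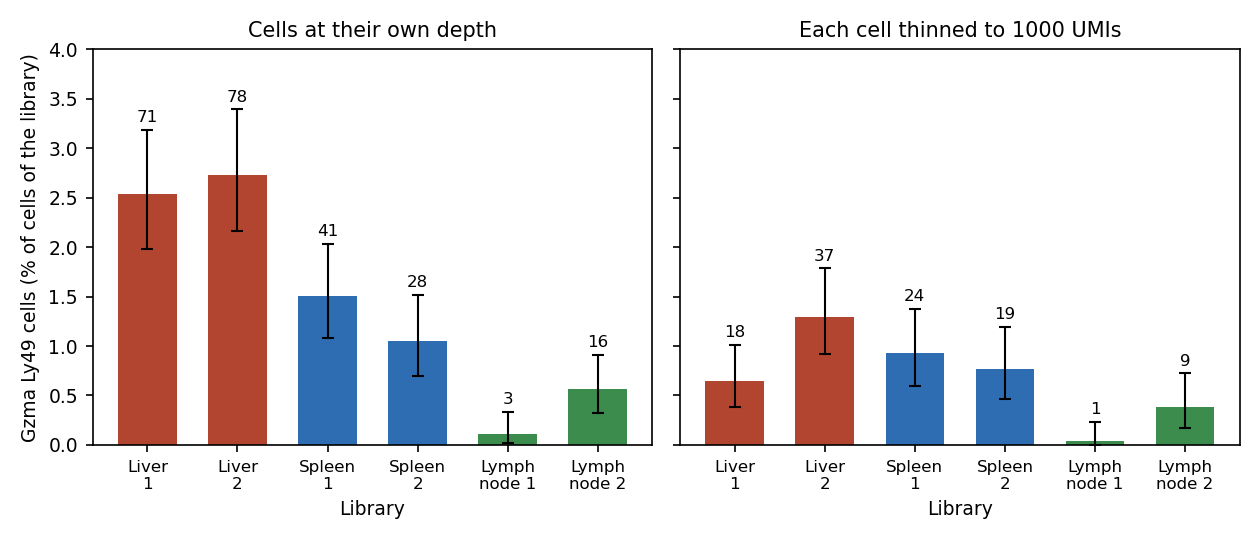
Share of Gzma Ly49 cells in each library, in percent of its cells, at the cells' own depth (left) and with each cell thinned to 1000 UMIs (right); numbers are member cells and bars exact 95% binomial intervals, which cover counting error only. At full depth the liver libraries sit at 2.53% and 2.73%, above spleen and lymph node, whereas after thinning liver and spleen overlap and lymph node stays lowest.

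The levels of the rule genes over all cells of a library, members or not, give the organ pattern without the rule. Gzma, which encodes granzyme A, a protease of cytotoxic granules, was at 57.7 ± 9.16 CPM in the liver libraries, at 16.8 ± 0.841 CPM in those of spleen and at 8.35 ± 2.93 CPM in those of lymph node (SD, n = 2). Tyrobp followed the same order with 39.5 ± 9.34, 13.4 ± 1.78 and 7.86 ± 2.80 CPM, and so did Fcer1g with 77.8 ± 21.3, 45.3 ± 10.2 and 19.2 ± 6.41 CPM. Klra1 did not, since its liver libraries at 78.7 and 90.5 CPM overlapped with those of spleen at 85.0 and 91.8 CPM, above lymph node at 44.9 and 78.4 CPM. Klra9 was higher in spleen (37.4 ± 5.66 CPM) than in liver (24.6 ± 7.21 CPM), and Klra5 was higher in liver (13.9 and 20.2 CPM) than in spleen (4.37 and 6.35 CPM), in neither case with overlapping libraries.

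Among the members, Fcer1g was the most widespread rule gene, followed by Klra1. Fcer1g encodes the Fc receptor γ chain, an adaptor of activating receptors, and had a UMI in 197 members (83.1%). By library it was found in 84.5% and 82.1% of liver, 90.2% and 75.0% of spleen and 66.7% and 81.2% of lymph node members. Tyrobp was found in 90 members, from 53.5% in liver library 1 down to 18.8% in lymph node library 2. Both adaptors were seen in 71 members and at least 1 in 216.

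Klra1 (Ly49A) had a UMI in 156 members, Klra9 (Ly49I) in 128, Klra7 (Ly49G) in 100, Klra5 (Ly49E) in 57 and Klra6 (Ly49F) in 33. The Ly49 genes did not share 1 organ pattern. Klra5 was found in 36.6% and 29.5% of liver members, 7.32% and 17.9% of spleen members and 0 of 19 lymph node members. Klra9 went the other way between liver and spleen, with 45.1% and 42.3% against 80.5% and 64.3%. Klra1 was least frequent in liver members, at 54.9% and 64.1%, against 71.4% to 100% in the other 4 libraries.

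Gzma was found in 36.6% and 46.2% of liver members, 26.8% and 21.4% of spleen members, 0 of 3 members of lymph node library 1 and 12.5% of those of lymph node library 2. Ncr1, the gene of the NK receptor NKp46, was the rarest rule gene with 28 members. In remaining cells the rule genes were found in at most 6.76% of a library, Fcer1g in liver library 2. In remaining cells of iNKT17 type, which should lack these genes, 0 to 2.10% had a UMI over the 6 libraries together, most of these cells being from lymph node. In single libraries the share reached 14.3% for Klra1 (of 35 cells, liver library 1), 12.8% and 11.5% for Fcer1g (of 47 cells, liver library 2, and 26 cells, spleen library 2) and 6.38% for Tyrobp (liver library 2). These cells had median depths of 1786 to 4722 UMIs per library against 1299 to 3479 UMIs in members. In 16 of the 54 pairs of a rule gene and a library, the share of remaining cells lay at or below that of iNKT17-type cells and cannot be told from background. These were Fcer1g in liver library 2 (6.76%), both spleen libraries (2.83% and 2.70%) and lymph node library 2, Tyrobp in liver library 2 (4.92%) and both lymph node libraries, Klra1 in liver library 1 (6.45%), Klra9 in both liver libraries (1.65% and 2.05%) and lymph node library 1, Klra7 in liver library 1 (1.17%), Klra5 in spleen library 2 (0.419%), Gzma in lymph node library 1 (0.417%) and Ncr1 in both lymph node libraries, where both shares were 0. In some of these pairs the iNKT17-type share rested on 1 cell with a UMI. This held for Klra9 in the 3 libraries named and for Klra7 in liver library 1. It also held for Klra5 in spleen library 2 and Fcer1g in spleen library 1. Of all 1384 iNKT17-type cells 2 met the rule.

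**Figure D2:**
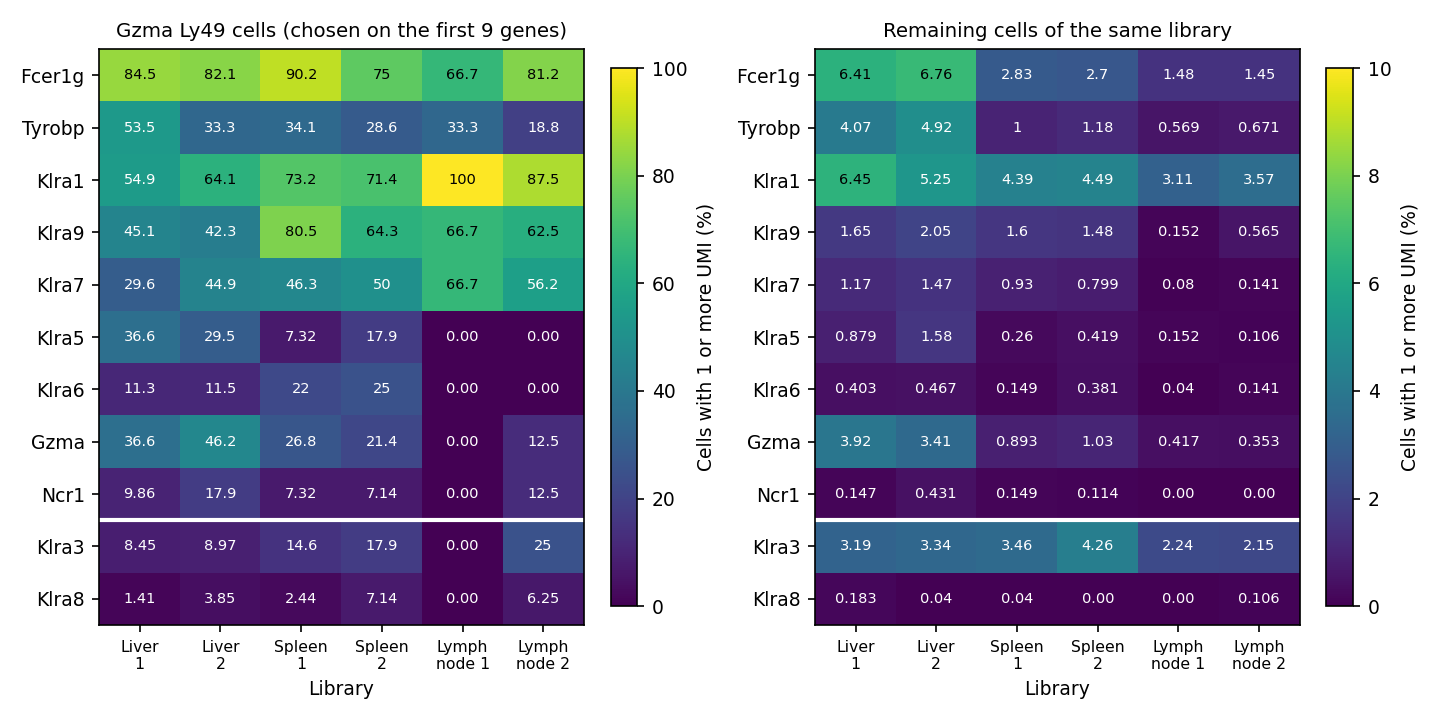
Percent of cells with 1 or more UMI of each rule gene, and of Klra3 and Klra8 below the white line, by library, in Gzma Ly49 cells (left, scale to 100%) and in the remaining cells (right, scale to 10%). Members were chosen on the first 9 genes, so the left panel is a description; Klra5 falls from 36.6% in liver library 1 to 0 in both lymph node libraries while Klra1 reaches 100% in lymph node library 1.

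Members combined the rule genes in many ways. The 237 cells showed 96 distinct combinations, and 54 of these were seen in 1 cell. The most frequent, Klra1 with Klra9 and Fcer1g, was found in 22 cells from 6 of 6 libraries, and Klra1 with Klra7 and Fcer1g followed with 14. The rule was met with exactly 3 genes by 127 members, with 4 by 77 and with 5 or more by 33. Counting Ly49 genes of the rule alone, 60 members had 1, 107 had 2, 58 had 3, 4 had 4 and 2 had 5, while 6 had none. Gzma was seen with a Ly49 gene in 76 of its 81 members, and 41 of the 81 also had Klra9. At these depths an absent UMI does not show an absent RNA, so the combinations are minimum sets.

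Ly49 genes resemble each other, and reads that fit 2 genes can be lost or shared. In the last 500 bases of the GENCODE transcripts, where reads of this assay start, 0 windows of 90 bases of Klra1, Klra5, Klra6, Klra7 and Klra8 were found anywhere in the transcripts of another Klra gene. The share was 4.74% for Klra9 (31 windows, 17 of which were in Klra8 outside its own last 500 bases), 5.15% for Klra3 and 10.5% for Klra10, which was seen in 2 members. Klra3 (Ly49C), outside the rule, had a UMI in 28 members and in 2.15% to 4.26% of remaining cells. Klra2 and Klra17 had none in members.

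Each rule gene was also read in cells chosen without it, as those with UMIs in at least 3 of the other 8 genes. The 9 genes were put together with their joint presence in these cells known, so these values describe how the genes go together and support no more. Gzma was then 22.9-fold higher in the chosen than in the remaining cells, with 769 and 841 CPM in liver, 369 and 457 CPM in spleen, 0 in lymph node library 1 and 717 CPM in lymph node library 2, against 2.75 to 46.8 CPM in the rest. The fitted folds were 10.6 for Klra1, 19.7 for Klra5, 32.5 for Klra7, 29.8 for Klra9, 22.8 for Fcer1g and 15.3 for Tyrobp. Klra6 and Ncr1 were too rare for the fit. In the same 9 fits 0.657% of all tests were called higher, from which nothing is read here.

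Cells just outside and just inside the rule were set side by side. Only cells with 0 UMIs of Lyz2, Cd74 and Top2a entered. Of 305 such cells with exactly 2 rule genes 45.9% had a UMI of the NK lectin gene Klre1, against 55.1% of the 127 cells with exactly 3, and Gzmb was found in 28.9% and 32.3%. In these pooled cells the steps of the transcription factor gene Klf2 (32.5% and 50.4%) and the chemokine receptor gene Cxcr6 (78.4% and 59.8%) were larger, but the order changed between libraries. Klre1 had the largest step of these 4 genes in liver library 1 (51.6% and 81.6%, against 33.3% and 42.1% for Klf2) and in spleen library 1 (23.7% and 50%, against 47.4% and 68.8% for Klf2). Klre1 went the other way in spleen library 2 (41.9% and 22.2%), lymph node library 1 (35.7% and 0%) and lymph node library 2 (25% and 18.2%). Lymph node library 1 had only 2 cells with exactly 3 genes. In each liver and spleen library Cxcr6 was less frequent at 3 genes than at 2, for example 76.3% against 89.2% in liver library 1 and 38.9% against 60.5% in spleen library 2. Cells with 2 genes had a median of 2769 UMIs and those with 3 a median of 2286, and no test was made.

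**Figure D3:**
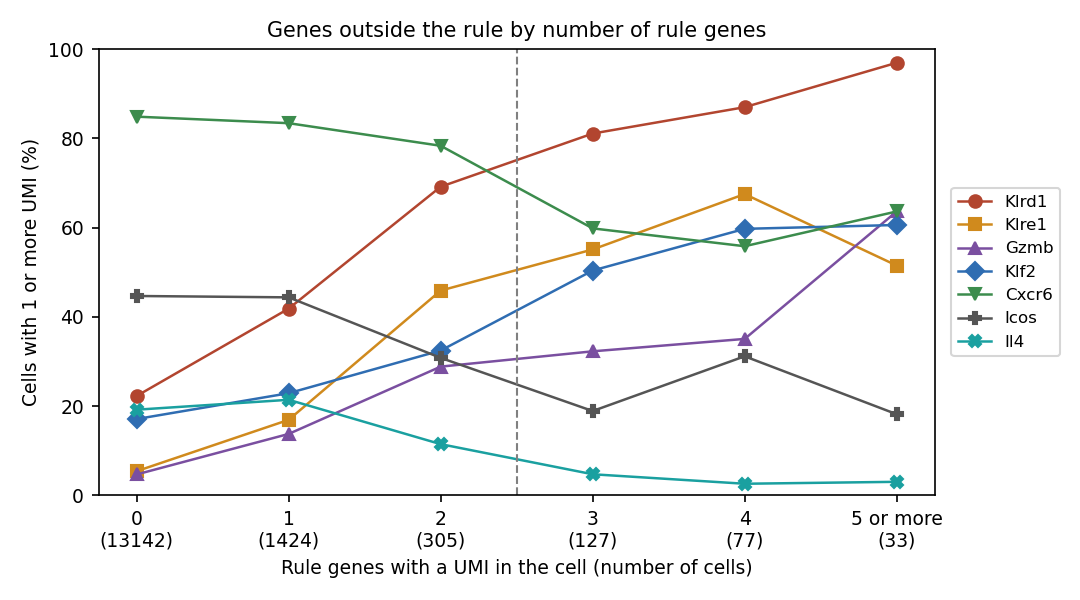
Percent of cells with 1 or more UMI of 7 genes outside the rule, by the number of rule genes with a UMI in the cell; cells with 0 UMIs of Lyz2, Cd74 and Top2a are pooled over the 6 libraries, their number stands under each point, and the dashed line marks the limit of the rule. Klrd1 climbs from 22.3% at 0 rule genes to 97.0% at 5 or more, and Il4 drops from 19.2% to 3.03%. In the pooled cells the largest steps of Cxcr6 (78.4% to 59.8%) and Klf2 (32.5% to 50.4%) fall at the limit.

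Gzma Ly49 cells differed from the remaining cells of the same library in a small number of genes outside the rule. By edgeR on the 12 sums with the library as a block, 62 of 8471 genes (0.732%) were higher in members and 64 (0.756%) lower at an adjusted p below 0.05. The median log2 fold over all genes tested was -0.13. The 7 tested NK lectin receptors, Gzmb, Ccl5, Klf2 and 9 of 15 tested genes of late effector cells were higher, and Cxcr6, Il4, Icos and Rora were lower. Folds below are log2 of members over remaining cells with standard errors from this fit, the sums of 6 libraries are listed as liver, spleen and lymph node, and the genes were called unless stated.

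All 7 tested genes of the NK lectin receptors other than Ly49 rose, with a median log2 fold of 1.83 beside -0.13 over all genes. Klre1 (chr6:129577905-129585827, GRCm38), a receptor of NK cells encoded in the same gene complex as the Ly49 family, was at 816 and 852 CPM in liver members, 730 and 466 CPM in spleen members and 296 and 221 CPM in lymph node members. The remaining cells had 119 and 143, 48.7 and 48.2, and 11.2 and 10.7 CPM, so that every member sum lay above every remaining sum. Its log2 fold was 2.94 ± 0.17 (SE, edgeR adjusted p = 2.66e-64, higher in 6 of 6 libraries).

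Klrd1 (chr6:129591782-129598775) encodes CD94, the partner of the NKG2 chains, and was at 1255 and 1705 CPM (liver), 2037 and 2052 CPM (spleen) and 592 and 772 CPM (lymph node) in members, against 382 and 433, 345 and 371, and 127 and 120 CPM. Every member sum was above every remaining sum here too, with a log2 fold of 2.05 ± 0.17 (edgeR adjusted p = 1.28e-30). Klrc2, which encodes the activating partner NKG2C, rose by 2.40 ± 0.17 and Klrc1, which encodes the inhibitory partner NKG2A, by 1.55 ± 0.17, although lymph node library 1 had no Klrc1 UMI in its 3 members. Klrk1, the gene of NKG2D, rose by 1.83 ± 0.17, and Klrb1c, the gene of NK1.1, by 1.02 ± 0.18. Klrb1f rose by 1.12 ± 0.33 on 29 member UMIs and was at 0 in lymph node library 2.

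Of 9 tested NK adaptors and other NK receptors outside the rule, 2 rose and 0 fell. Cd7, a surface protein of T and NK cells, was at 1004 and 1200 CPM (liver), 1422 and 902 CPM (spleen) and 296 and 883 CPM (lymph node) in members. The remaining cells had 198 and 175, 250 and 194, and 356 and 388 CPM, so the members lay above them except in lymph node library 1, where 1 UMI was counted. The log2 fold was 2.09 ± 0.17 (edgeR adjusted p = 2.84e-32). Ly6c2, a Ly6 surface protein, rose by 1.74 ± 0.17, from 1131 and 1270 CPM in remaining to 2793 and 2469 CPM in member sums of liver.

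Of 13 tested genes of cytotoxic granules 3 rose and 0 fell, and the median log2 fold was 0.51. Gzmb (chr14:56258838-56262260), which encodes granzyme B, had 784 and 1067 CPM in liver members against 142 and 188 CPM in remaining liver cells. In spleen it had 135 and 31.1 CPM against 9.64 and 5.57 CPM, and in lymph node 1777 and 221 CPM against 3.74 and 5.77 CPM, the last 2 member values on 6 and 4 UMIs. Members were higher in 6 of 6 libraries, while spleen members lay below the remaining cells of liver. The log2 fold was 2.70 ± 0.18 by edgeR (adjusted p = 2.19e-48) and 3.90 by DESeq2, and in single libraries, with 10 CPM added to both levels, it ran from 1.40 (spleen library 2) to 7.02 (lymph node library 1). Serpinb9, the gene of an inhibitor of granzyme B, rose by 0.99 ± 0.25 and Nkg7, a granule membrane protein, by 0.78 ± 0.18. Prf1, the gene of perforin, had 5 member UMIs and was not tested.

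Of 9 tested chemokines and cytokines 3 rose and 1 fell. Ccl5, a chemokine that draws T cells and monocytes, was at 10197 and 8549 CPM (liver), 11108 and 13432 CPM (spleen) and 7995 and 12797 CPM (lymph node) in members, against 4739 and 3808, 5332 and 4643, and 757 and 681 CPM. Member sums of spleen lay above those of liver, and the range of the lymph node sums overlapped both. Remaining cells of lymph node had far less Ccl5 than those of liver and spleen. Its log2 fold was 1.62 ± 0.20 (edgeR adjusted p = 1.00e-13, higher in 6 of 6 libraries), and without lymph node library 1 it was 1.52 and not called, although it was called without both lymph node libraries (1.11). Xcl1, a chemokine for cross-presenting dendritic cells, rose by 1.03 ± 0.18 and Ifng, the gene of interferon γ, by 0.90 ± 0.21. Xcl1 was not called without liver library 1 (log2 fold 0.65) or liver library 2 (0.78), nor Ifng without lymph node library 2 (0.64).

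Il4 (chr11:53602982-53618669), a cytokine of type 2 responses that iNKT cells make early, fell by 2.99 ± 0.40 on the log2 scale (edgeR adjusted p = 2.17e-11). Members had 20.9 and 25.3 CPM in liver, 0 in both spleen libraries, and 0 and 55.2 CPM in lymph node, on 9 UMIs in all. The remaining cells had 136 to 163 CPM in all 6 libraries, above every member sum.

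Genes of homing and egress moved in both directions, with Klf2 and Itga4 higher and Cxcr6 lower among the 20 tested. Klf2 (chr8:72319033-72321656), a transcription factor that drives egress receptors, was at 408 and 398 CPM (liver), 1191 and 964 CPM (spleen) and 296 and 993 CPM (lymph node) in members, against 158 and 131, 329 and 297, and 147 and 175 CPM. It was higher in members of 6 of 6 libraries, with a log2 fold of 1.56 ± 0.17 (edgeR adjusted p = 2.40e-17). Itga4, an integrin chain, rose by 1.07 ± 0.31.

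Cxcr6 (chr9:123806475-123811760), the receptor for CXCL16 that keeps iNKT cells in liver sinusoids, fell by 1.66 ± 0.19 on the log2 scale (edgeR adjusted p = 5.97e-15). Members were at 648 and 676 CPM (liver), 577 and 342 CPM (spleen) and 592 and 717 CPM (lymph node), and remaining cells at 1286 and 1697, 1970 and 2038, and 1810 and 2181 CPM. No member sum reached a remaining sum.

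2 lists are those the study plotted for these libraries, after earlier work by others on effector CD8 T cells. They were used here with the study's pattern in these libraries known, so they are not independent evidence of a direction. Of the 7 circulatory genes Klf2, Klrb1c and Fam65b rose, and of 14 tested residency genes 0 rose and Icos fell. S1pr1, the egress receptor on the circulatory list, had 26 member UMIs and a log2 fold of 0.74 that was not called.

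Of 15 tested genes of NK maturation and late effector cells 9 rose and 0 fell, with a median log2 fold of 0.78. Anxa2, an annexin of the inner membrane, was at 282 and 467 CPM (liver), 461 and 404 CPM (spleen) and 888 and 552 CPM (lymph node) in members, against 80.9 and 92.0, 103 and 92.7, and 111 and 111 CPM. No sums overlapped, and the log2 fold was 2.03 ± 0.18 (edgeR adjusted p = 1.18e-26). Vim, an intermediate filament, rose by 1.43 ± 0.21, Anxa1 by 1.32 ± 0.24 and Ahnak, a large scaffold protein, by 1.06 ± 0.19. S100a6, a calcium-binding protein, rose by 0.92 ± 0.17 but was lower in members of lymph node library 1, in which Vim and Ahnak had 0 UMIs.

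Of 16 tested transcription factors of effector and NK cells 0 were called higher and 2 lower, with 6 at an unadjusted p below 0.05 and a median log2 fold of -0.20. Rora, which encodes a nuclear receptor of type 17 and innate lymphoid cells, fell by 1.96 ± 0.31 and Bcl11b, a factor of T cell identity, by 0.92 ± 0.23 on the log2 scale. Tbx21, the gene of T-bet, had a log2 fold of 0.52 ± 0.22 (edgeR adjusted p = 0.342) and Zbtb16, the gene of the iNKT factor PLZF, of -1.12 ± 0.34 (adjusted p = 0.0577), neither called. Among 14 tested cytokine receptors Il12rb2 rose by 1.11 ± 0.29 and Il2ra fell by 1.69 ± 0.49 on 7 member UMIs, and Il2rb, the receptor chain for IL-15, had a log2 fold of 0.14 that was not called. Of 9 memory and immature T cell genes the gut homing receptor gene Ccr9 fell, by 2.75 ± 0.43, and 0 rose.

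Some genes of other iNKT types were lower. Of 9 tested type 2 genes 3 fell, Il4, Plac8 and Icos, and these were also called by DESeq2. Of 7 tested type 17 genes 3 fell by edgeR, Pxdc1, Tmem176b and Tmem176a, and DESeq2 called none of these (adjusted p = 0.0829, 0.146 and 0.378). Icos, a costimulatory receptor, was at 157 and 114 CPM (liver), 96.1 and 93.3 CPM (spleen) and 0 and 496 CPM (lymph node) in members, and at 322 and 313, 381 and 405, and 851 and 951 CPM in remaining cells. It was lower in members of 6 of 6 libraries, with a log2 fold of -1.53 ± 0.23 (edgeR adjusted p = 1.72e-08). Remaining cells included 1382 of the 1384 iNKT17-type cells and more cells outside type 1, so the mix of types moved with these results.

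The fit was therefore repeated with remaining cells of iNKT1 type only, 9905 cells with UMIs in at least 2 of 6 type 1 genes. Of the 62 higher genes 48 could be tested and 47 were called again, Klrb1f being at an adjusted p of 0.0504. Of the 64 lower genes 51 could be tested and 49 were called, including Cxcr6, Il4, Icos and Rora. Of the transcription factors of effector and NK cells 12 could be tested there, and 1 was called higher and 2 lower. The genes that define this type, Klrb1c, Nkg7, Ifng, Tbx21 and Il2rb among them, were not tested there.

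**Figure D4:**
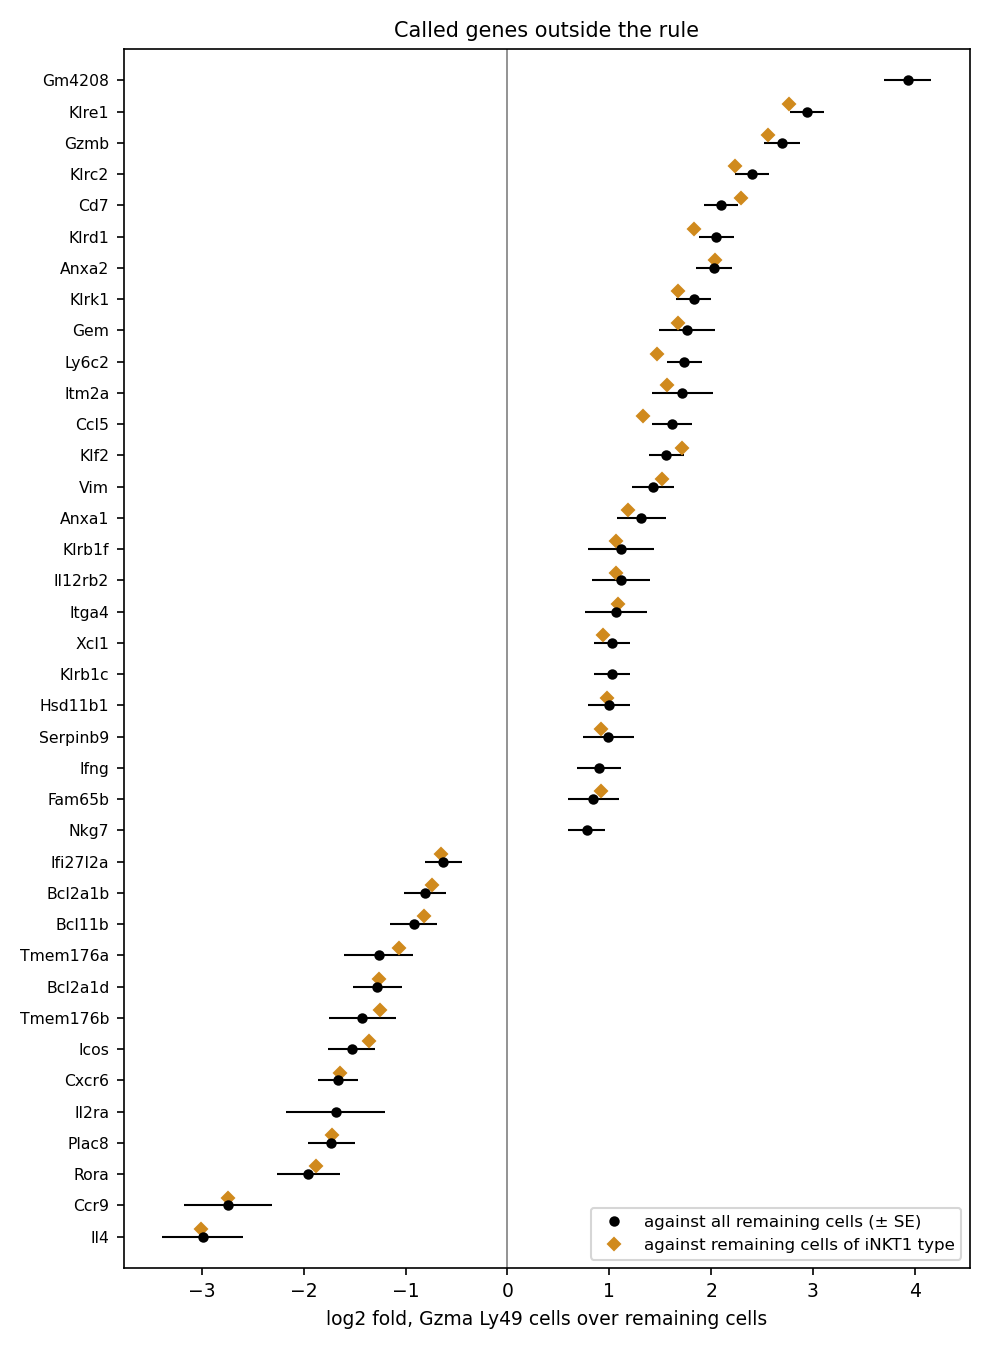
Log2 fold of Gzma Ly49 cells over remaining cells for 38 called genes outside the rule, with black points for all remaining cells (bars, SE of the edgeR fit over 6 libraries) and diamonds for remaining cells of iNKT1 type, where tested. Every diamond lies on the same side of 0 as its black point; Klre1 stands at 2.94 and Il4 at -2.99.

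**Figure D5:**
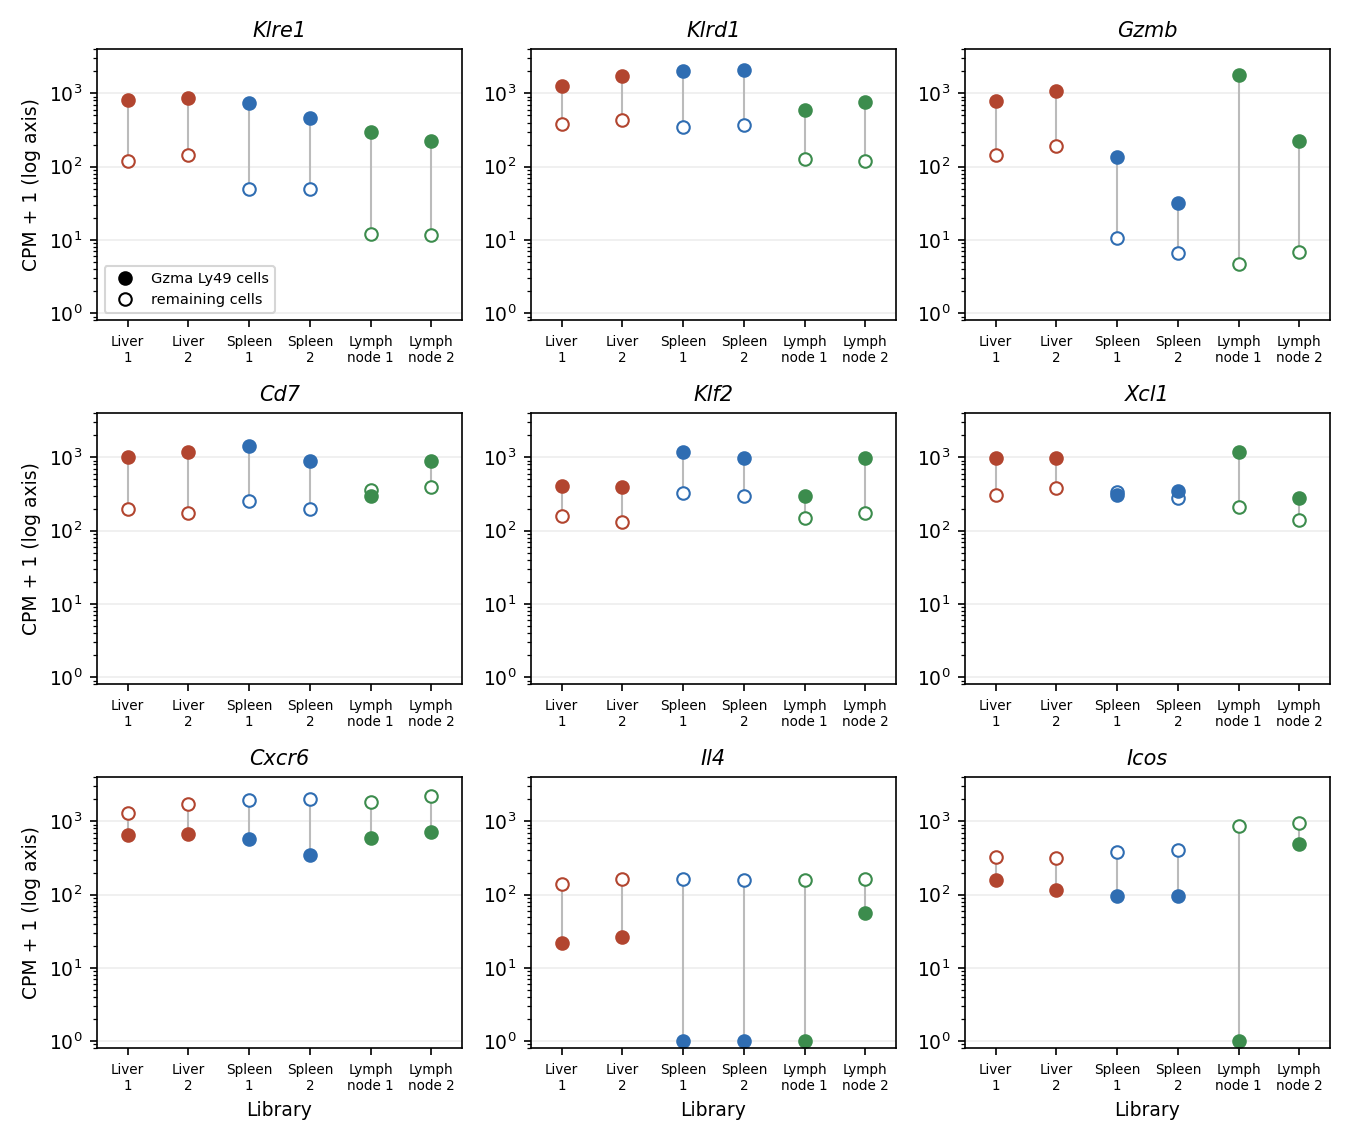
CPM + 1 on a log axis of 9 genes in each library, with filled circles for Gzma Ly49 cells and open circles for the remaining cells of that library. Klre1 and Klrd1 are higher and Cxcr6 and Il4 lower in members of 6 of 6 libraries; the lymph node library 1 points rest on 3 cells, where 1 UMI equals 296 CPM, and points at 1 stand for 0 UMIs.

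Lists with no or few calls complete the comparison. The immediate early list had 0 of 16 tested genes called (4 at an unadjusted p below 0.05), the inhibitory list 0 of 9 (0) and MHC class I 0 of 11 (2). DESeq2 called 0 genes of these lists, or of the T cell receptor list, where it gave an adjusted p. With cells thinned to 1000 UMIs, edgeR called 1 gene of the T cell receptor list lower, Cd28 (log2 fold -1.31, adjusted p = 0.0335), and 1 of the inhibitory list, Izumo1r (-2.62, adjusted p = 0.0169), in a fit whose median log2 fold over all genes was -0.70. Of 10 survival genes Bcl2a1d and Bcl2a1b fell, by 1.28 ± 0.24 and 0.81 ± 0.20 on the log2 scale, and of 14 interferon response genes Ifi27l2a fell by 0.63 ± 0.18.

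Some genes among the largest differences were on no list. Gm4208 (chr1:62821355-62832370), a long noncoding RNA, had the largest fold among the genes called higher. It had 157 and 177 CPM (liver), 461 and 218 CPM (spleen) and 0 and 110 CPM (lymph node) in members against 1.60 to 15.9 CPM in remaining cells (log2 fold 3.93 ± 0.23, edgeR adjusted p = 9.26e-60, higher in 5 of 6 libraries). Gem, which encodes a small GTPase, rose by 1.76 ± 0.27, Itm2a, a membrane protein of activated T cells, by 1.72 ± 0.30, and Hsd11b1, an enzyme of glucocorticoid reactivation, by 0.99 ± 0.21. Ly6a, the gene of Sca-1, fell by 1.44 ± 0.21 on the log2 scale and was lower in members of 6 of 6 libraries.

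The 10 largest decreases rested on few counts. Rnf19a, Kif22, Nav2, Invs, AW146154, Cdkn3, Tpd52, Dnajc12 and Mastl had 0 UMIs in members, and against a floor of 3 counts over the group they were at least 1.82-fold to 2.46-fold lower. Pxdc1 had 1 member UMI. With a rule of at least 4 genes, or without both lymph node libraries, the 9 genes at 0 were not called. Kif22, Cdkn3 and Mastl act in cell division, as do Mki67 (log2 fold -3.12 ± 0.70), Birc5 (-2.35 ± 0.43) and Stmn1 (-2.02 ± 0.28), which also fell. The rule demanded 0 UMIs of Top2a, a gene of dividing cells, so the fall of these genes, which were on no list, was partly fixed by the choice of members.

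With remaining cells that also had 0 UMIs of Lyz2, Cd74 and Top2a, 57 of the 62 higher and 42 of the 64 lower genes were called. With each cell thinned to 1000 UMIs the counts were 16 higher and 112 lower and the median log2 fold of all genes was -0.70, so the share of higher calls fell from 49.2% to 12.5%. Of the 62 higher genes 15 were called then, Klre1, Gzmb, Klrc2, Klrd1, Klrk1, Klrc1, Cd7, Ly6c2, Anxa2, Ahnak, Klf2, Ccl5 and Gm4208 among them, while Klrb1c, Klrb1f, Serpinb9, Nkg7, Xcl1, Ifng, Itga4, Il12rb2, Fam65b, Vim, Anxa1, S100a6, Gem, Itm2a and Hsd11b1 were not, nor Il2ra, Tmem176a, Birc5 and Stmn1 among the lower ones. Cxcr6, Il4, Icos and Rora were called lower again, Il4 and Rora with log2 folds of -4.14 and -4.47. DESeq2 called 32 higher and 16 lower (66.7% higher), among them 31 of the 62 and 16 of the 64, but not Serpinb9, Klrb1f, S100a6, Itga4, Ifng, Il12rb2, Bcl11b, Ccr9, Fam65b, Bcl2a1b, Ifi27l2a, Pxdc1, Tmem176a and Tmem176b, and it gave no adjusted p for Il2ra, Mki67 and the 9 genes at 0. Without both lymph node libraries 64 were higher and 53 lower, among them 50 of the 62 and 46 of the 64 but not Ifng, Itga4, Il12rb2, Il2ra, Klrb1f and Pxdc1 (edgeR adjusted p of 0.0602 to 0.121), and leaving out liver library 1 or 2 gave 38 and 36 or 40 and 35.

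Members also differed between organs. In a fit on the 6 member sums with 906 genes tested, edgeR called 48 (5.3%) for liver against spleen, 40 (4.42%) for liver against lymph node and 17 (1.88%) for spleen against lymph node at an adjusted p below 0.05, with n = 2 per organ. Liver members had more Gzmb than spleen members (log2 fold 3.32 ± 0.42, edgeR adjusted p = 5.41e-09), and the remaining liver cells had more than the remaining spleen cells. Ly6a was at 544 and 663 CPM in liver against 135 and 62.2 CPM in spleen members (2.54 ± 0.42). The remaining cells differed in the same direction, with 1041 and 1369 CPM of Ly6a in liver against 708 and 666 CPM in spleen.

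Bcl2, a survival gene, was higher in liver members with 795 and 316 CPM against 38.4 and 124 CPM in spleen (3.02 ± 0.67), and its remaining cells had 794 and 516 against 88.3 and 91.0 CPM. The noncoding Gm42418 (2.55 ± 0.52) and Txnip, a regulator of glucose uptake (2.21 ± 0.61), were also higher in liver. Klf2 was lower in liver than in spleen members (log2 fold -1.38 ± 0.25, edgeR adjusted p = 3.75e-05), as were Rab18 (-1.50), Rp9 (-1.19), the calmodulin gene Calm2 (-1.09) and Prr13 (-0.96). Remaining cells differed in the same direction for Gm42418 (426 and 293 CPM in liver against 89.1 and 72.1 CPM in spleen), Txnip (299 and 212 against 79.5 and 67.9 CPM), Klf2 (158 and 131 against 329 and 297 CPM), Calm2 (650 and 726 against 1006 and 1168 CPM) and Prr13 (403 and 405 against 629 and 583 CPM). The remaining cells of the organs were closer for Rab18 (141 and 126 against 143 and 158 CPM) and overlapped for Rp9 (211 and 175 against 206 and 196 CPM). Leaving out both lymph node libraries gave 58 genes for liver against spleen, 32 higher and 26 lower in liver, compared with 33 and 15 with them. Without spleen library 1 Klf2 was not called here. Of the genes named for this comparison DESeq2 called Gzmb, Ly6a and Bcl2 but not Gm42418, Txnip, Klf2, Rab18, Rp9, Calm2 and Prr13 (adjusted p of 0.0547 to 0.685). With cells thinned to 1000 UMIs neither Klf2 nor Calm2 was called (edgeR adjusted p = 0.101 and 0.172).

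Immediate early genes, which cells switch on within a short time of a stimulus, were higher in lymph node members. Of 11 tested genes of that list 8 were called higher in lymph node than in liver members and 9 higher than in spleen members, 0 were called lower, and the median log2 folds were -2.26 and -2.14 against 0.08 and 0.10 over all genes. The remaining lymph node cells also had more of the genes named here. Junb, an AP-1 subunit, was at 434 and 442 CPM (liver), 846 and 497 CPM (spleen) and 7699 and 6178 CPM (lymph node) in members, and at 398 and 399, 802 and 628, and 4035 and 4334 CPM in remaining cells. Liver over lymph node gave a log2 fold of -3.75 ± 0.24 (edgeR adjusted p = 1.57e-25) and, with spleen in the place of liver, -3.13 ± 0.27. Fos (-6.26 and -5.44), Jun (-3.62 and -4.20) and Dusp1, a phosphatase of MAP kinases (-4.76 and -3.54), moved in the same way, as did Ppp1r15a (-3.70, liver) and Kdm6b, which is not on the list (-4.00, spleen). The Fos folds rest on 2 and 0 UMIs in liver members, 1 and 0 in spleen members and 2 and 11 in lymph node members.

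Higher in liver than in lymph node members were Ly6a (3.74 ± 0.92) and 4 genes with 0 UMIs in lymph node members. Against the floor of 3 counts over the group, Gimap7, a GTPase of lymphocyte survival, was at least 3.68-fold higher in liver, Gm42418 at least 2.88-fold, Prelid1 at least 2.59-fold and Adgre5, the gene of CD97, at least 2.16-fold. In spleen members, compared with lymph node members, Gimap7 was at least 2.65-fold higher and Klrd1 higher by 1.50 ± 0.36 on the log2 scale. Remaining lymph node cells also had less Gimap7, 52.7 and 53.3 CPM against 374 to 756 CPM in the other organs. The other genes named here differed in the same direction in remaining cells. Ly6a was at 516 and 422.5 CPM in lymph node against 1041 and 1369 CPM in liver, and Gm42418 at 76.2 and 64.2 against 426 and 293 CPM. Prelid1 was at 227 and 188 against 348 and 316 CPM in liver, and Adgre5 at 74.9 and 66.2 against 326 and 275 CPM. Klrd1 was at 127 and 120 CPM in lymph node against 345 and 371 CPM in spleen. Without lymph node library 2 none of Gimap7, Gm42418, Prelid1, Adgre5, Ly6a, Jun and Ppp1r15a was called for liver, nor Gimap7 and Jun for spleen, whereas Junb and Dusp1 were for both. Fos was not tested without either lymph node library. DESeq2 did not call Gimap7, Gm42418, Prelid1, Adgre5 and Ly6a for liver, nor Gimap7, Klrd1, Fos and Kdm6b for spleen. With cells thinned to 1000 UMIs Klrd1 was not called (log2 fold 0.84, edgeR adjusted p = 0.896).

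These counts moved with the library and the tool. Between liver and spleen the count of 48 became 21, 27, 17 and 8 without liver library 1, liver library 2, spleen library 1 and spleen library 2. Between liver and lymph node 40 became 18 and 24 without liver library 1 and 2, and 47 higher and 2 lower without lymph node library 2. Between spleen and lymph node 17 became 5, 5, 4 and 3 without the same liver and spleen libraries in the same order, and 49 higher and 3 lower without lymph node library 2. DESeq2 called 11 (11 higher), 18 (7 higher) and 4 (1 higher) genes in the 3 comparisons.

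The difference of the member effect between organs was tested as an interaction with 9608 genes. By edgeR 2 genes (0.0208%) were called for liver against spleen, 20 (0.208%) for liver against lymph node and 7 (0.0729%) for spleen against lymph node. Xcl1 was raised in liver members, 967 and 972 against 309 and 383 CPM, and not in spleen members, 307 and 342 against 333 and 274 CPM (difference 1.68 ± 0.30, edgeR adjusted p = 0.000141). Ly6c2 was raised more in spleen members, 2248 and 1430 against 361 and 346 CPM, than in liver members (difference -1.06 ± 0.19, adjusted p = 0.000141). DESeq2 called neither, with counts of 0 (98 at an unadjusted p below 0.05), 4 and 1 genes in the 3 comparisons, and with cells thinned to 1000 UMIs 0 genes were called (73, 128 and 113 at an unadjusted p below 0.05). Without both lymph node libraries 14 were called for liver against spleen. Xcl1 was not called without liver library 1 or spleen library 1, and Ly6c2 not without either liver library or spleen library 1. The counts of 2, 20 and 7 became 0, 3 and 2 without liver library 1 (170 at an unadjusted p below 0.05 in the first), 1, 3 and 2 without liver library 2, 1, 9 and 3 without spleen library 1, 3, 9 and 4 without spleen library 2, 8, 15 and 3 without lymph node library 1, and 14, 36 and 19 without lymph node library 2.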

How the data were processed

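The authors prepared 10x Genomics Chromium 3′ (v2) libraries of sorted iNKT cells and, per the labels and the submitters' processing notes, used Cell Ranger 3.1.0, mm10 and Seurat. The deposited matrices hold raw counts of UMIs per gene and barcode, not normalized. The other deposited files hold barcodes and gene identifiers. The labels name the molecule nuclear RNA, which was not settled here. Gene positions are from GENCODE vM21 (98.7% of 27998 identifiers matched).

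Barcodes with 300 to 4000 genes and at most 15% mitochondrial UMIs were kept (16532 of 16587). No cells were removed as doublets. UMIs were summed per library over members and remaining cells. The 110 ribosomal protein and haemoglobin genes (23.1% to 34.3% of UMIs) were left out. The test was edgeR 4.0.16 (R 4.3.3) with TMM, robust glmQLFit and filterByExpr at a minimum count of 10, and p-values were adjusted by Benjamini-Hochberg over all genes tested. Members and remaining cells were compared with library as a block, and organs among members without a block. The 9 rule genes, the 3 excluded genes and other Klra genes were not tested. The fits were tested on simulated counts, but the outcome is not given here and nothing is read from it. DESeq2 1.42.0, thinning, other filters and leaving out libraries were alternatives. iNKT1 type meant UMIs in at least 2 of 6 genes and iNKT17 type at least 3 of 10. Intervals and floors (3 counts) cover counting error only.

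The members and all gene lists were chosen with earlier results of these data known. Named genes were the 15 largest increases and 10 largest decreases among called genes with the same sign in each library with at least 10 UMIs, up to 4 examples per list, and the 5 largest each way between organs without overlap of their libraries. Y-linked genes and Xist were left out. Ly6a and the dividing-cell genes Mki67, Birc5 and Stmn1 in the comparison with remaining cells, and Tbx21, Zbtb16, Il2rb, S1pr1, Prf1, Ahnak, S100a6 and Klrb1f, were named after their values were seen. Some list genes are not reported here.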

Additional observations from a re-analysis of the deposited data

Results flagged for a closer look

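The genes below showed a member effect (log2 fold of members over remaining cells) that differed between 2 organs by the interaction test of edgeR. The values are differences of that effect, the first organ minus the second. All comparisons with lymph node rest on member sums of 3 and 16 cells.

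Between liver and spleen the difference was 1.68 for Xcl1 and -1.06 for Ly6c2.

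Between liver and lymph node it was 3.92 for Saraf, 3.17 for the actin-capping gene Capg, 2.52 for the galectin gene Lgals3, 2.47 for S100a4 and 2.29 for Cd7. Capg had 592 and 331 CPM in lymph node members against 943 and 979 CPM in remaining lymph node cells, and 94.1 and 208 against 62.8 and 85.0 CPM in liver. The difference was -3.31 for Gzmb and -1.99 for Ccl5, both raised more in lymph node members. Gzmb rested on 10 lymph node member UMIs, and Ccl5 on 27 and 232.

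Between spleen and lymph node it was 2.80 for Capg, 1.93 for Cd7, 1.91 for S100a6, 1.64 for S100a11 and -2.08 for Ccl5. Ccr10 had a fitted value of 13.18, which is no bound because lymph node and liver members had 0 UMIs. Its 12 member UMIs were 11 in spleen library 2 and 1 in spleen library 1.

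Without both lymph node libraries Xcl1 (1.68) and Ly6c2 (-1.05) were called again. Neither was called by DESeq2, which called Gzmb and Ccl5 and none of the other genes above. Without lymph node library 1 the calls of Saraf, Lgals3, Gzmb, Ccr10, S100a11 and, for spleen, Cd7 were lost, and without lymph node library 2 those of Saraf, Lgals3, Ccl5, Ccr10 and, for spleen, Capg. Cd7 (liver over lymph node) and S100a6 (spleen over lymph node) were called with each of the 6 libraries left out in turn.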

How the results depend on the processing

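Over all alternatives, the results for named genes kept direction and call 1275 times, lost the call 342 times, gained it 4 times and changed direction 1 time. The difference of the Gzmb effect between liver and lymph node, -3.31, became 7.79 with cells thinned to 1000 UMIs, where it was not called (edgeR adjusted p = 1). Before thinning the lymph node members held 6 and 4 Gzmb UMIs. The cause was not tested.

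For members against remaining cells (62 higher, 64 lower), a rule of at least 2 of 9 genes gave 94 and 110, at least 4 gave 38 and 49, thinning gave 16 and 112, DESeq2 gave 32 and 16, and thinning the remaining sums to the member total gave 39 and 15. Leaving out 1 library gave 38 to 55 higher and 35 to 61 lower.

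Between organs (liver and spleen 48, liver and lymph node 40, spleen and lymph node 17), a rule of at least 2 genes gave 125, 98 and 17, at least 4 gave 13, 16 and 6, thinned cells 5, 13 and 5, DESeq2 11, 18 and 4, no filter on low counts 23, 36 and 6, and member sums thinned to the smallest total 2, 4 and 1. Leaving out 1 library gave 8 to 70, 18 to 49 and 3 to 52.

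For the difference of the member effect (2, 20 and 7), at least 2 genes gave 15, 54 and 25, at least 4 gave 2, 8 and 2, thinned cells 0, 0 and 0, DESeq2 0, 4 and 1, and no filter 2, 12 and 5. Without both lymph node libraries, chosen after seeing the data, liver and spleen differed in 14 genes. Leaving out 1 library gave 0 to 14, 3 to 36 and 2 to 19. The causes were not tested.

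The share difference between liver and spleen (1.35 percentage points) was 3.27 at 2 genes, 0.572 at 4, 0.124 thinned and 0.986 without Gzma in the rule. For liver and lymph node (2.29) these were 5.17, 1.11, 0.758 and 1.83, and for spleen and lymph node (0.941) they were 1.90 at 2 genes and 0.540 at 4. Leaving out 1 library gave 1.13 to 1.58, 2.07 to 2.52 and 0.717 to 1.16.

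Between equally numbered libraries of different organs, the correlations of deviations over 906 genes were 0.0844, -0.0300 and 0.00509. These values cannot decide whether such libraries were paired, because the member sums rest on 3 to 78 cells and counting noise could hide pairing. With a replicate block between organs 53, 38 and 13 genes were called, and without the library block members and remaining cells differed in 64 higher and 81 lower genes.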
